A study of Drosophila melanogaster with 53 samples.

Results

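The immediate early and JNK-AP1 genes of Drosophila were followed in S2 cells after a short exposure to the steroid hormone 20-hydroxyecdysone (20E). They were taken by gene symbol and comprise 8 genes, kay, Jra, bsk, puc, CrebA, cbt, sr and Hr38, of the 15598 genes in the deposited gene table. They have 21 of the 28704 transcripts of the transcript table. The question was whether such general response genes moved together with the ecdysone early genes at 1 h.

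The study measured polyA RNA by sequencing in S2 cells, a cultured line of embryonic origin. The treated cells received 0.3 µM 20E in DMSO for 1 h and the control cells received the same volume of DMSO, with 2 libraries for each condition by the labels. Both groups were grown without dsRNA in medium with serum, so that serum was present on both sides of the comparison. The tables hold 1 column of FPKM (fragments per kilobase of transcript, scaled to the number of fragments sequenced) for each condition, with lower and upper confidence bounds of unnamed level for genes, so neither a spread between libraries nor a test between conditions could be computed. Of 8 hemocyte markers, chosen because S2 cells are hemocyte-like, 6 reached 1 FPKM, with summed levels of 365 FPKM in 20E and 360 FPKM in DMSO. The markers Hml and NimC1 stayed under 1 FPKM in both conditions. Of 6 markers of neurons, glia, muscle, germ line and fat body, only elav reached 1 FPKM, with 3.66 FPKM in 20E and 3.63 FPKM in DMSO.

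Immediate early genes are transcribed within minutes of a stimulus without new protein synthesis. In the JNK pathway, a kinase cascade ends in the JNK kinase Basket (bsk), which phosphorylates the transcription factor Jun (Jra). Jun pairs with Fos (kay) to form AP-1, and AP-1 induces the phosphatase Puckered (puc), which switches JNK off again. Stripe (sr) is a zinc finger factor of the EGR family, Hr38 is the fly member of the NR4A nuclear receptors, and both are known as activity-regulated genes in fly neurons. Cabut (cbt) is a zinc finger factor related to mammalian KLF10 and KLF11, and CrebA is a bZIP factor that activates genes of the secretory pathway.

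The DNA around the start sites from which these genes are read is given here, because the kay start sites differ in output and because the start regions can be searched for binding motifs. Each run holds 80 bases before the annotated start site in lower case and the first 20 transcribed bases in capitals, 5′ to 3′ on the gene's strand. The sequences come from the RefSeq annotation of Release 6 of the Drosophila genome, in which 20 of the 21 transcripts were found by identifier. Jra is not printed. The transcript that was not found is FBtr0081398, which carried 91.2% of Hr38 in 20E and 94.9% in DMSO, so the start site of Hr38 is that of its minor transcript FBtr0301347. The 4 kay start sites come first, followed by 1 start site for each other gene, that of its most abundant transcript except for Hr38.
kay FBtr0099990, chr3R:29782529-29782628, plus strand: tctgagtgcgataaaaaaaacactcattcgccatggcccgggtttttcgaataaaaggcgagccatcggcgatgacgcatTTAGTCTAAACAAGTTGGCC
kay FBtr0099989, chr3R:29772812-29772911, plus strand: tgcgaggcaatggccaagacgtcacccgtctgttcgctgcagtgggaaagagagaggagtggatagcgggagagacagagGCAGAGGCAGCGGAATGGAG
kay FBtr0099988, chr3R:29765915-29766014, plus strand: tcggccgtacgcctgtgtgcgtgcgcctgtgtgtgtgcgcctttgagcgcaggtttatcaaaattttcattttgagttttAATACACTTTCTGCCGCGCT
kay FBtr0290076, chr3R:29788856-29788955, plus strand: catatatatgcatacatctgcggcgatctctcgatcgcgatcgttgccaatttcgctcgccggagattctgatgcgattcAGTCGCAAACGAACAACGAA
CrebA FBtr0075558, chr3L:15535315-15535414, plus strand: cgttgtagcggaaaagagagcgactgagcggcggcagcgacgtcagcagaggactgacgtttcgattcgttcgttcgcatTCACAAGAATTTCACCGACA
puc FBtr0081792, chr3R:8105252-8105351, plus strand: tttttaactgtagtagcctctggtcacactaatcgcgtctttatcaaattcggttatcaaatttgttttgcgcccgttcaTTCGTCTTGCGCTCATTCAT
cbt FBtr0078083, chr2L:479669-479768, minus strand: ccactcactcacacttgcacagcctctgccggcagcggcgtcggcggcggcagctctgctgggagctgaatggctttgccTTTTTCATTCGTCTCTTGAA
bsk FBtr0080087, chr2L:10250482-10250581, minus strand: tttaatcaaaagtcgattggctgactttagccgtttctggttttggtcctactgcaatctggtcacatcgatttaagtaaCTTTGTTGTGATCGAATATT
sr FBtr0301615, chr3R:18121981-18122080, plus strand: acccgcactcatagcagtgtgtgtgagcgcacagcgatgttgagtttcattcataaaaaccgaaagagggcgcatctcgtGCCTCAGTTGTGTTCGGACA
Hr38 FBtr0301347, chr2L:20714569-20714668, minus strand: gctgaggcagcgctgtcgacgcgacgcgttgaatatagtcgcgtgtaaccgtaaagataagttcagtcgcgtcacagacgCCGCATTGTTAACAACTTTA

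A window from 250 bases before to 50 bases after 1 start site per gene, that of the most abundant transcript found in RefSeq, was searched on both strands for 4 motifs. The start of the main Hr38 transcript was therefore not searched. The AP-1 site TGANTCA was present in the window of Jra, 71 bases before its start site, and in no other of the 8 windows, against 6.10% of 14693 genes with a start site and 1 of the 10 ecdysone early genes. The CRE half-site TGACGT, a sequence bound by CREB-type bZIP factors, was present in the windows of CrebA and sr and in that of the minor Hr38 transcript, against 6.61% of all genes and 1 of the 10 ecdysone early genes. In CrebA its matches began 41 and 26 bases before the start site, and the first of them reads acgtca on the strand printed above. The kay transcript FBtr0099989 also held the CRE half-site, 62 bases before its own start site. The nuclear receptor half-site AGGTCA was present in puc and cbt, 224 and 246 bases before their start sites, against 5.91% of all genes and none of the 10 ecdysone early genes. TATAAA was absent from these 8 windows and present in 45.5% of all windows and in 3 of the 10 ecdysone early genes. Other start sites of the members did hold TATAAA. It began 242 bases before that of kay FBtr0099989, 111 before that of kay FBtr0290076 and 86 before that of Jra FBtr0088410. A match is a description of the letters and not of binding.

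None of the 8 genes was higher or lower in 20E by more than 2-fold on the scale of FPKM + 1, or by more than 1.5-fold. Over all genes, 0.295% were more than 2-fold higher and 0.0321% more than 2-fold lower, and 0.833% were past 1.5-fold upwards and 0.301% downwards, so a count of 0 in 8 is also what the background share gives. No member had bounds that lay apart between the conditions, where 0.43% of all genes had bounds apart upwards and 0.0769% downwards. The log2 change, log2((20E + 1) / (DMSO + 1)), lay between -0.27 and -0.01 in the 8 genes. It was below 0 in 6 of the 6 genes of at least 1 FPKM, against 49.1% of the 7703 genes of at least 1 FPKM in a condition, and in 8 of 8 genes in all, against 37.7% of all 15598 genes, many of which are listed at 0 in both conditions. Each of these differences lay inside the bounds, so no direction can be claimed for any gene. The levels are of polyA RNA at 1 h only, so an earlier, passing change and the activity of JNK were not measured. The genes kay, Jra, bsk, puc, CrebA and cbt were well expressed, between 47.2 and 240 FPKM in 20E and between 55.8 and 289 FPKM in DMSO, while sr and Hr38 were listed near 0 in both.

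**Figure D1:**
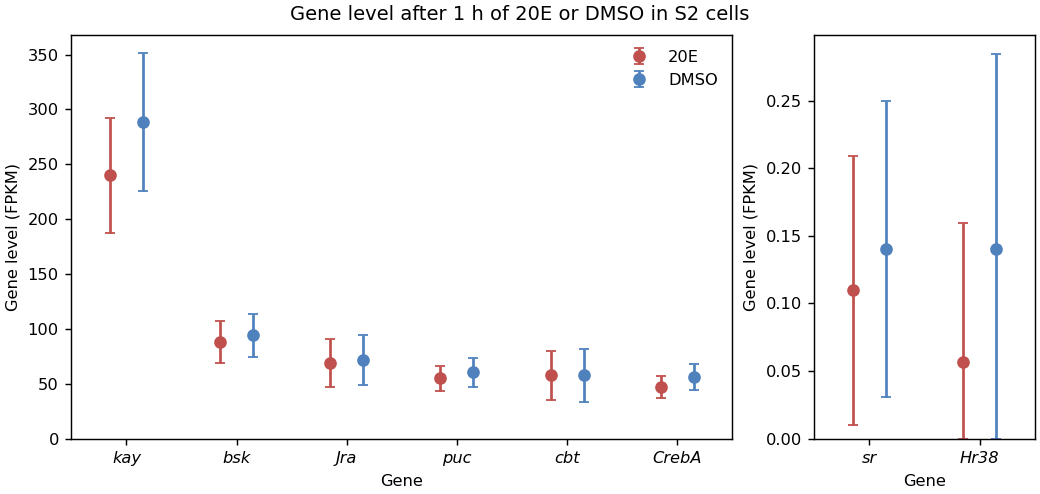
Gene level in FPKM (linear axes starting at 0) of the 8 genes in 20E (red, left) and DMSO (blue, right), with points for the authors' FPKM and bars for the authors' confidence bounds. In every pair the bars overlap, and sr and Hr38 lie under 0.3 FPKM with bars that come close to 0 or reach it.

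The AP-1 genes were already high without the hormone, in the DMSO control. kay, the Fos gene, had 240 FPKM in 20E (authors' bounds 188 and 292) and 289 FPKM in DMSO (bounds 226 and 352). It was the highest of the 8 genes in both conditions and ranked 466th of 15598 genes in 20E and 363rd in DMSO. Its log2 change of -0.27 was the lowest of the 8 and lay at percentile 4.73 of the changes of expressed genes, but the bounds allow any ratio between 0.533 and 1.29. Jra, the Jun gene, had 69.3 FPKM in 20E (bounds 47.5 and 91.1) and 71.6 FPKM in DMSO (bounds 49.0 and 94.3), with a log2 change of -0.05. The levels of both AP-1 partners in 20E thus stayed within the range of their levels in DMSO, and kay was the higher of the pair in FPKM, which is per length, in both conditions.

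The kinase and its phosphatase showed the same picture. bsk, the JNK gene, had 88.4 FPKM in 20E (bounds 69.4 and 107) and 94.1 FPKM in DMSO (bounds 74.1 and 114), a log2 change of -0.09. puc, whose transcription is widely used as a readout of JNK activity, had 54.9 FPKM in 20E (bounds 43.2 and 66.7) and 60.3 FPKM in DMSO (bounds 47.4 and 73.2), a log2 change of -0.13. The bounds of puc allow a ratio of at most 1.41, and those of bsk one of at most 1.45. A rise to 2-fold therefore lies outside what the bounds allow for both genes. The bounds are of unnamed level and need not hold the spread between libraries, so this is no test.

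CrebA had 47.2 FPKM in 20E (bounds 37.0 and 57.3) and 55.8 FPKM in DMSO (bounds 44.0 and 67.7), a log2 change of -0.24 at percentile 6.09 of expressed genes. cbt had 57.6 FPKM in 20E (bounds 35.3 and 79.9) and 57.9 FPKM in DMSO (bounds 33.8 and 81.9), a log2 change of -0.01. The 2 columns thus gave nearly the same level for cbt. Its bounds were the widest of the expressed genes, with upper bounds 38.7% above the FPKM in 20E and 41.6% above it in DMSO, against about 21 to 22% for kay, puc, CrebA and bsk. They allow a ratio between 0.431 and 2.37, so cbt is the single expressed member for which a 2-fold rise lies within the bounds.

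sr, the EGR family gene, had 0.110 FPKM in 20E (bounds 0.0103 and 0.209) and 0.140 FPKM in DMSO (bounds 0.0305 and 0.250). From the size of the steps between low FPKM values these levels correspond to about 51.1 fragments in 20E and 45.1 in DMSO, where the 20E column rested on about 1.46 times as many fragments in all. The bounds allow a ratio between 0.0411 and 6.85. Hr38, the NR4A gene, had 0.0565 FPKM in 20E (bounds 0 and 0.160) and 0.140 FPKM in DMSO (bounds 0 and 0.284). A lower bound of 0 in both conditions leaves the ratio of Hr38 without an upper limit. Small differences of these 2 genes could not be detected within bounds this wide. The upper bounds of sr and Hr38 in 20E keep both below 0.3 FPKM. Hr4, an early-late receptor gene counted here with the ecdysone early genes, had a similar level in DMSO. It had 11.1 FPKM in 20E (bounds 8.18 and 14.0) and 0.138 FPKM in DMSO (bounds 0 and 0.289). A rise of that size would have been detected and was not seen for sr or Hr38. In such bulk RNA, a low level in every cell and a higher level in a few cells cannot be told apart. For comparison, the expressed genes kay, bsk, Jra, cbt, puc and CrebA rest on between about 11024 and 88978 estimated fragments in 20E and between about 7827 and 73601 in DMSO.

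The 10 ecdysone early genes were EcR, br, Eip74EF, Eip75B, Eip78C, Hr46, Hr4, Hr39, vri and E23. They were taken from the known ecdysone cascade, with earlier results of these data known. Their counts are thus a reference and no test. Hr46, Hr4 and Hr39 are early-late receptor genes and are included among the 10. All 10 were higher in 20E with bounds apart, against 0.43% of all genes. All 10 were also more than 2-fold higher on the FPKM + 1 scale, against 0.295% of all genes. Their median log2 change was 1.85, with a range from 1.33 to 3.41, and their median level was 34.1 FPKM in 20E and 8.85 FPKM in DMSO. The bZIP gene vri had 126 FPKM in 20E (bounds 99.3 and 153) and 12.8 FPKM in DMSO (bounds 9.86 and 15.8). EcR, the gene of the hormone receptor, had the smallest log2 change of the 10, with 37.4 FPKM in 20E (bounds 29.1 and 45.7) and 14.3 FPKM in DMSO (bounds 11.1 and 17.5). The highest log2 change among the 8 immediate early and JNK-AP1 genes, -0.01 for cbt, lay below the lowest among the 10 ecdysone early genes. The members' levels in DMSO were not low: the median of the 6 expressed ones was 66.0 FPKM, above the median of the early genes in either condition.

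**Figure D2:**
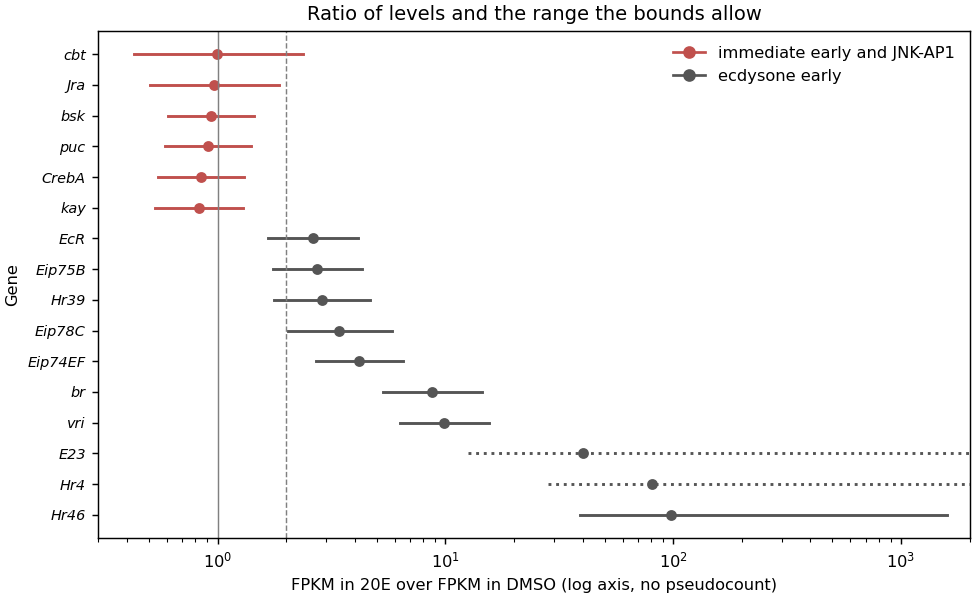
FPKM in 20E over FPKM in DMSO without a pseudocount (log axis) for the 6 expressed immediate early and JNK-AP1 genes (red) and the 10 ecdysone early genes (grey), with points for the ratio and lines from the lower bound in 20E over the upper bound in DMSO to the reverse. Dotted lines have no upper end because the lower bound in DMSO is 0, the vertical lines mark ratios of 1 and 2, and every red line crosses 1 while no grey line reaches it.

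The transcripts of kay separate its 4 start sites. FBtr0099990 carried most of the gene, with 187 FPKM in 20E and 228 FPKM in DMSO, which is 77.9% of the gene in 20E and 78.8% in DMSO. FBtr0099989, which starts 9717 bases upstream, had 38.8 FPKM in 20E and 41.4 FPKM in DMSO. FBtr0099988, which starts 16614 bases upstream, had 12.7 FPKM in 20E and 18.1 FPKM in DMSO. FBtr0290076 starts 6327 bases downstream of the main site and had 1.48 FPKM in 20E and 1.74 FPKM in DMSO. The order of the 4 start sites was thus the same in both conditions, and no share moved by more than 1.86 percentage points. The 4 transcripts differ at the 5′ end of the protein-coding sequence and share 1566 coding bases, of 1641 in FBtr0099990 and 2268 in FBtr0290076. Transcripts have no bounds in the tables.

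**Figure D3:**
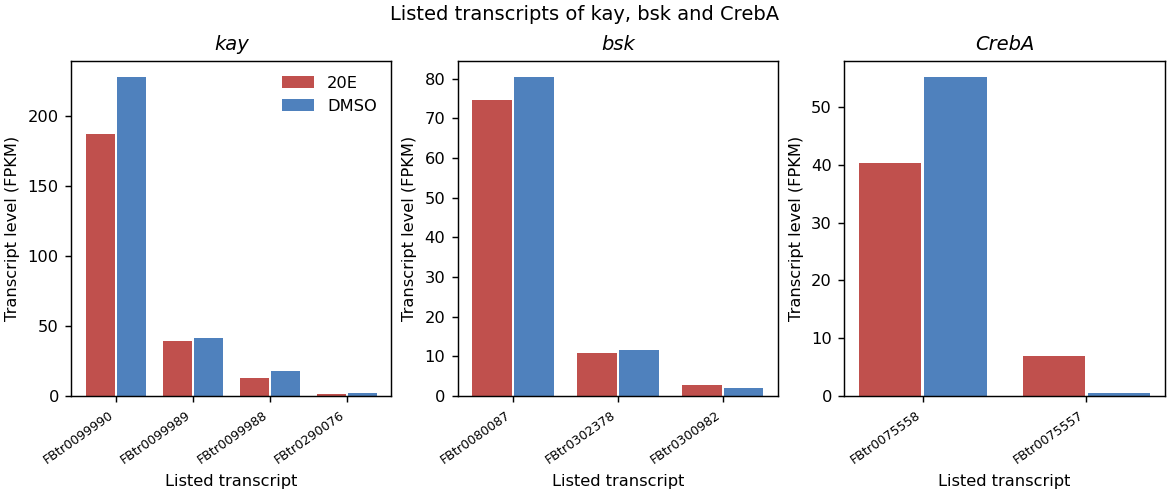
Level of each listed transcript of kay, bsk and CrebA in FPKM (linear axes starting at 0), with bars for 20E (red, left) and DMSO (blue, right). The order of the kay and bsk transcripts is the same in both conditions, and the shorter CrebA transcript FBtr0075557 has 6.87 FPKM in 20E and 0.579 FPKM in DMSO.

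The 2 transcripts of CrebA behaved differently from the gene. The shorter one, FBtr0075557, had 6.87 FPKM in 20E and 0.579 FPKM in DMSO, a log2 change of 2.32 and a ratio of FPKM + 1 of 4.98. The longer one, FBtr0075558, had 40.3 FPKM in 20E and 55.3 FPKM in DMSO. The shorter transcript thus made up 14.6% of the gene in 20E and 1.04% in DMSO. By the RefSeq annotation both have the same start site, the same 1551 coding bases and the same exons up to the last, and differ only by 1309 bases that extend the 3′ end of the longer one. It was the only 1 of the 21 transcripts more than 2-fold higher, against 1.83% of all transcripts, and none was more than 2-fold lower, against 1.03%. Such shifts were common in these tables. Among 2919 genes with several transcripts and at least 10 FPKM, the median of the largest shift was 4.48 percentage points, and 437 genes (15.0%) had a shift at least as large as the 13.5 points of CrebA. The tables give no bounds for transcripts and the authors' own test was not used, so the CrebA shift is given here without an error.

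bsk had 3 transcripts from 3 start sites with the same coding length of 1119 bases. FBtr0080087 had 74.6 FPKM in 20E and 80.5 FPKM in DMSO, FBtr0302378 had 10.9 FPKM in 20E and 11.6 FPKM in DMSO, and FBtr0300982 had 2.80 FPKM in 20E and 2.02 FPKM in DMSO. Jra was read almost wholly from FBtr0088411, with 69.1 FPKM in 20E and 71.6 FPKM in DMSO, while FBtr0088410 had 0.206 FPKM in 20E and was listed at 0 in DMSO. cbt was carried by FBtr0078083, with 56.1 FPKM in 20E and 56.2 FPKM in DMSO, and its unspliced form FBtr0078084 made up 2.60% of the gene in 20E and 2.85% in DMSO. The third form of cbt, FBtr0310030, was listed at 0 in both, and puc has the 1 transcript FBtr0081792. Of the sr transcripts, FBtr0301615 had 0.0808 FPKM in 20E and 0.0980 FPKM in DMSO, FBtr0083543 had 0.0290 FPKM in 20E and 0.0422 FPKM in DMSO, and FBtr0083542 was listed at 0. Of the Hr38 transcripts, FBtr0081398 had 0.0516 FPKM in 20E and 0.133 FPKM in DMSO, FBtr0301347 had 0.00495 FPKM in 20E and 0.00717 FPKM in DMSO, and FBtr0081397 was listed at 0. Outside CrebA, no transcript of these genes was past 2-fold on the FPKM + 1 scale.

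Several of these genes lie in a locus that the tables share with a neighbour, where reads could be divided between the genes. ush shares the locus of cbt and had 54.8 FPKM in 20E and 66.9 FPKM in DMSO. RpLP0-like shares that of Jra and had 141 FPKM in 20E and 153 FPKM in DMSO. CG2617, which shares the locus of Hr38, had 8.98 FPKM in 20E and 7.56 FPKM in DMSO, and fig, which shares that of kay, had 3.36 FPKM in 20E and 3.33 FPKM in DMSO. The bounds of all of these overlapped between the conditions, and 2 tRNA genes in the locus of sr were listed at 0. The bounds of Jra and cbt were wider than those of the median gene, whose upper bound lay 23.1% above its FPKM in 20E, among genes of at least 10 FPKM, and the part of the shared loci in this was not tested.

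The genes around the members were taken from 5 lists with 74 genes, of which 60 reached 1 FPKM. A single gene, raw, had bounds apart upwards and none had bounds apart downwards, where 1 of 60 is to be read against 0.831% of expressed genes with bounds apart upwards and 0.143% downwards. None was more than 2-fold higher or lower, and the median log2 change of the 74 genes was -0.03, against 0 over all genes.

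Upstream of bsk, the list of 20 cascade genes holds the ligand, receptors, adaptors, kinases, scaffolds and inhibitors of the pathway, with a median log2 change of 0.01. raw, an inhibitor of JNK signalling known from dorsal closure of the embryo, had 37.9 FPKM in 20E (bounds 29.9 and 46.0) and 22.8 FPKM in DMSO (bounds 17.8 and 27.7), a log2 change of 0.71. Its transcript FBtr0303868 had 14.7 FPKM in 20E and 5.96 FPKM in DMSO, and FBtr0079746 had 20.6 FPKM in 20E and 14.5 FPKM in DMSO. FBtr0079745 had 2.64 FPKM in 20E and 2.32 FPKM in DMSO. All 3 raw transcripts were thus higher in 20E, and only FBtr0303868 passed 2-fold on the FPKM + 1 scale. The small GTPase genes Cdc42 and Rac1 were the highest of the list, with 336 and 201 FPKM in 20E and 313 and 198 FPKM in DMSO. The TNF receptor gene grnd (listed as CG10176) was the lowest, with 0.0396 FPKM in 20E and 0.00759 FPKM in DMSO, although its bounds reach 0 in both.

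Downstream, the 14 targets of JNK and AP-1 had 0 genes with bounds apart and a median log2 change of -0.06. chic, which encodes profilin, had 772 FPKM in 20E and 787 FPKM in DMSO, and the cell death gene rpr had 156 FPKM in 20E and 187 FPKM in DMSO. upd1 (listed as os), a ligand of the JAK/STAT pathway, was the lowest with 0.0147 FPKM in 20E and 0.0160 FPKM in DMSO. Among the 12 other bZIP factor genes, 0 had bounds apart and the median was -0.07. The bZIP gene vri, higher in 20E with bounds apart, was counted with the ecdysone early genes and is not in this list. crc, the ATF4 gene, had 366 FPKM in 20E and 382 FPKM in DMSO, Xbp1 of the unfolded protein response had 292 FPKM in 20E and 271 FPKM in DMSO, and the C/EBP gene slbo had 0.161 FPKM in 20E and 0.102 FPKM in DMSO. High levels of bZIP genes were thus present in both conditions.

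The relatives of sr and cbt were mostly silent. Of 8 other EGR, KLF and Sp factor genes, 2 reached 1 FPKM. luna had 16.5 FPKM in 20E and 16.6 FPKM in DMSO, Spps had 9.30 FPKM in 20E and 10.0 FPKM in DMSO, and Klf15, Sp1 and btd were listed at 0 in both. The 20 genes of the ERK pathway, the usual route to immediate early genes downstream of growth factors in mammals, had 0 genes with bounds apart and a median log2 change of -0.04. pnt, an ETS activator, had 267 FPKM in 20E and 293 FPKM in DMSO, and the Ras gene Ras85D had 223 FPKM in 20E and 241 FPKM in DMSO. Egfr, the EGF receptor gene, was the lowest with 0.275 FPKM in 20E and 0.0744 FPKM in DMSO, with overlapping bounds. The components of the ERK route were therefore mostly present, 19 of 20 at 1 FPKM or more.

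**Figure D4:**
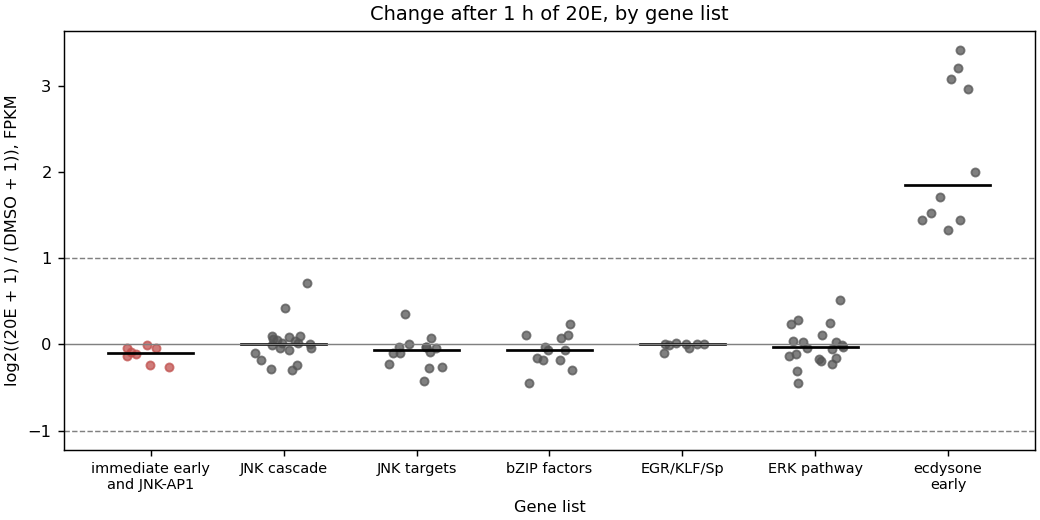
log2((20E + 1) / (DMSO + 1)) of FPKM (vertical axis) for each gene of the 8 immediate early and JNK-AP1 genes (red), the 5 pathway lists and the 10 ecdysone early genes (grey), with black bars for the median of each list and dashed lines at 2-fold higher and lower. The ecdysone early genes lie between 1.33 and 3.41, and all other genes lie between the dashed lines, with raw the highest of them at 0.71.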

How the data were processed

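PolyA RNA of S2 cells was sequenced in 4 libraries, and 49 other samples of the series were left out. Gene and transcript levels were deposited as FPKM, in 1 column for 20E and 1 for DMSO, in tables with the column names of Cuffdiff, and how the 2 libraries entered a column is not given in the sources used here. The submitters' processing notes list TopHat2, Bowtie2 2.3.4.2, bcl2fastq 2.17.1.14 and deepTools 3.0.2 and the builds dm6 and dm3 without saying which made these tables. The transcript table also holds the authors' fold changes, test statistics, p-values, q-values and calls, none of which was used.

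The change of a gene was computed as log2((20E + 1) / (DMSO + 1)), so changes of low genes are understated. The range of ratios was taken from the lower bound in one condition over the upper bound in the other and is no confidence interval. The planned limma test needed a column per library and was not run. The genes and lists were chosen with earlier results of these data known. All 8 genes and their transcripts are named, and of each list the genes past 1.5-fold or with bounds apart and the 2 highest and the lowest in DMSO. The relative depth came from whole-fragment steps of low values, where 87.6% of 323 values in 20E and 93.9% of 346 in DMSO lay within 0.15 of a whole number (30% by chance). By these steps, 1 FPKM on 1000 bases stands for about 118 fragments in 20E and 80.9 in DMSO. No total depth was computed from this, and precision rests on the authors' bounds. The procedures were tested on simulated data. The positions in the tables were not combined with Release 6, whose sequences were joined by transcript identifier. Alternatives were another pseudocount, scaling, ratio limits, a limit on low values and the transcript table. The software was pandas 2.3.3 with NumPy 2.4.6 under Python 3.11.15, and figures were drawn with Matplotlib 3.10.9.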

Additional observations from a re-analysis of the deposited data

How the results depend on the processing

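The changes of the 8 genes were recomputed with another pseudocount or none, 2 scalings and the transcript table. Of 38 values, 37 stayed within the spread given by the bounds. The exception was Hr38 with a pseudocount of 0.1 FPKM, with a log2 change of -0.62 in place of -0.11, a value at which both levels are close to the pseudocount. Of the 38 values, 0 were above 0, but these settings could not have given another count. All 8 changes were already below 0, a pseudocount keeps the sign, and both scalings lower the hormone column against the control. The transcript sums repeat the gene levels. The count of 0 is therefore no evidence for a direction. For the 6 expressed genes the values ran from -0.33 to -0.01. All 9 recomputed counts stayed at 0, with ratio limits of 1.5 or 3 among them. The limit of 3, the limit on low values and bounds apart joined with a ratio limit could only return 0. Each of these narrows a count that was already 0. Scaling both columns to the same sum shifts the log2 ratio by -0.06, which moved the 6 expressed genes by about that much and sr and Hr38, under the pseudocount of 1, by less. Alternatives chosen after seeing the data left raw as the 1 pathway gene with bounds apart, while the log2 change of the shorter CrebA transcript was 3.36 with a pseudocount of 0.1 FPKM. No paired analysis was possible because the tables have no columns for single libraries, and leaving out a library and the limma fit were not run for the same reason. Precision is limited by the bounds, which allow a 2-fold rise of cbt, sr and Hr38 and not of kay, Jra, puc, CrebA or bsk. How far these bounds hold the spread between libraries is not known.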
